A study of Mus musculus with 14 samples.

Results

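Imprinted growth genes are a small set of genes that are mostly transcribed from the copy inherited from 1 parent and that act on growth, differentiation or nutrient handling. The set was chosen by name from the 3 deposited tables of raw gene counts and holds 10 genes of 37310 identifiers: Igf2 (ENSMUSG00000048583), H19 (ENSMUSG00000000031), Dlk1 (ENSMUSG00000040856), Meg3 (ENSMUSG00000021268), Nnat (ENSMUSG00000067786), Plagl1 (ENSMUSG00000019817), Peg3 (ENSMUSG00000002265), Grb10 (ENSMUSG00000020176), Rasgrf1 (ENSMUSG00000032356) and Igf2r (ENSMUSG00000023830). All 10 have a row in every table. No measured value entered the rule that chose them, but earlier results of these data were known when genes and lists were chosen.

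The RNA came from mouse pancreas, either from β-cells, which make and secrete insulin, or from whole islets, in which β-cells sit beside other hormone cells, vessels, connective tissue and immune cells. Wild-type β-cells came from neonates at postnatal day 6 (n = 3) and from adults at day 45 (n = 3). Whole islets from mice 8 weeks old were labelled TSC1 KO (n = 2) or control (n = 2), both with the prefix RC, and the series text adds that the TSC1 knockout is one of β-cells. Whole islets from mice 4 weeks old were labelled Db (n = 2) or control (n = 2), both with the prefix BKS. All 14 libraries carry the strain label C57BL/6. No source used here gives the meaning of RC and BKS, the Cre line behind the knockout, or how the β-cells were obtained. The labels do not say whether replicate libraries are separate animals, so a p-value measures only the spread between these samples, and that spread may be technical. Among the neonatal columns 2 share a heading with the number 3, and they are called neonatal 3a and 3b.

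In mammals, imprinted genes carry methylation marks set in the egg or the sperm, and the marks keep the maternal or the paternal copy silent in the offspring. Igf2 encodes insulin-like growth factor 2, a growth-promoting ligand read from the paternal copy, and its neighbour H19 is a non-coding RNA read from the maternal copy. Igf2r encodes the receptor that carries IGF2 to lysosomes for destruction. Grb10 encodes an adaptor that binds and restrains the insulin and IGF1 receptors and is a target of mTORC1, the kinase complex that the TSC1 protein keeps in check. Dlk1 encodes a membrane ligand related to Notch ligands and lies in 1 imprinted domain with the maternally read non-coding RNA Meg3. Nnat encodes neuronatin, a small protein of the endoplasmic reticulum known in β-cells for a part in processing preproinsulin. Plagl1 and Peg3 encode zinc finger proteins that bind DNA, and Rasgrf1 encodes an exchange factor that activates Ras. Counts per gene carry no information on which parental copy was read.

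By the mouse annotation GENCODE M21, Igf2, H19 and Peg3 lie on chromosome 7, Dlk1 and Meg3 on chromosome 12, Nnat on 2, Plagl1 on 10, Grb10 on 11, Rasgrf1 on 9 and Igf2r on 17. RefSeq promoter windows of build GRCm38.p6 matched 9 of the 10 genes by symbol. The 250 bases before a transcription start are shown for 5 genes that the comparisons turn on: Nnat, the gene called in all 3 comparisons, then Meg3, Peg3 and Rasgrf1, which were lower together in islets labelled TSC1 KO, and Dlk1, the protein-coding neighbour of Meg3. All are written 5′ to 3′ on the strand of the gene.
Nnat, chr2:157559828-157560077, plus strand: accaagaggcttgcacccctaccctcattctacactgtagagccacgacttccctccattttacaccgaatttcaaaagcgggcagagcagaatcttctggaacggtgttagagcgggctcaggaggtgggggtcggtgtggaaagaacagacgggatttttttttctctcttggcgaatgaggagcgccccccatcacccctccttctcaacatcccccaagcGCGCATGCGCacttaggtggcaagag
Meg3, chr12:109540746-109540995, plus strand: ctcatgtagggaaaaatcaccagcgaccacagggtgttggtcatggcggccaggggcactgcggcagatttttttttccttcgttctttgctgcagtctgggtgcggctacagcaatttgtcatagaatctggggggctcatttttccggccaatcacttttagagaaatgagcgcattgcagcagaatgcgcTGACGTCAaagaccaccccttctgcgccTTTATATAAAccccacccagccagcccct
Peg3, chr7:6730420-6730669, minus strand: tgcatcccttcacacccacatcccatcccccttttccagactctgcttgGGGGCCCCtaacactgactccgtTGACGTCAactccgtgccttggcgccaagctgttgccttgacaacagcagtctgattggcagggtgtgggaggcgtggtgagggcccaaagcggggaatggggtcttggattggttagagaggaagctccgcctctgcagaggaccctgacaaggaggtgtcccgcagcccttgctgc
Rasgrf1, chr9:89909525-89909774, plus strand: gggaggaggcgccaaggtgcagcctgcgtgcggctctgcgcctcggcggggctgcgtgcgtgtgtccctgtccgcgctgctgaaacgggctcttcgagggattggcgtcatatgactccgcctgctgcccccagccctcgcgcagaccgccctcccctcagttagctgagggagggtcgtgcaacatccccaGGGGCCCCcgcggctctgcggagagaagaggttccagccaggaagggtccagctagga
Dlk1, chr12:109452573-109452822, plus strand: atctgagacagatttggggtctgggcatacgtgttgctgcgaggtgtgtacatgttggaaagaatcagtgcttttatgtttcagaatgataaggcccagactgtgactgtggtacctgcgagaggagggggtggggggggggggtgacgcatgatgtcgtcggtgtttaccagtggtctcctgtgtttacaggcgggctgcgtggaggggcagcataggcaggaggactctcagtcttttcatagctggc
Capitals mark exact matches, on either strand, to 4 motifs chosen after these sequences were read. Nnat holds GCGCATGC, a core bound by NRF1, on both strands, 2 matches that overlap each other and so mark a palindrome. Of 32851 promoter windows of the same length 2.26% hold it. Meg3 and Peg3 hold TGACGTCA, the cAMP response element, found in 1.55% of windows. Peg3 and Rasgrf1 hold GGGGCCCC, a core bound by PLAGL1, found in 0.889%. Meg3 also holds TATAAA on both strands, 2 matches that overlap each other, and 12.4% of windows hold that motif. The other motifs do not overlap in these windows. The Dlk1 window holds none of the 4. Neither do the windows not shown, at another Meg3 start and at Igf2, Plagl1, Grb10 and Igf2r. A match is a description of the letters and not a binding site.

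Libraries held between 3507929 and 17688772 gene counts, fewest in the islets labelled TSC1 KO. Insulin transcripts (Ins1 and Ins2) took between 1.83% and 7.22% of counts in β-cells, 24.5% to 70.0% in control and Db islets, and 0.969% and 1.05% in islets labelled TSC1 KO, where mitochondrially encoded genes took 39.8% and 46.8%. All 10 β-cell markers were detected in every library. Tsc1, the gene named by the knockout, was at 30.9 and 34.4 CPM in islets labelled TSC1 KO and at 25.0 and 53.95 in RC controls. CPM is the gene's count per 1000000 of a library's counts, after scaling of the totals by TMM. The Tsc1 groups overlapped (edgeR log2 fold change -0.28 ± 0.38 SE, adjusted p = 0.638). Which part of the gene was removed is not given, and the counts cover the whole gene, so this count checks nothing about the label. Lepr, the leptin receptor gene in which the mouse mutation named db lies, had 1 and 4 counts in Db libraries and 11 and 2 in BKS controls, which also checks nothing.

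The genes spanned nearly the whole range of transcript levels. Levels between genes are compared per length, as CPM per kilobase of exons (RPKM), with exon lengths from GENCODE M21. In neonatal β-cells Peg3 was highest at 410 ± 44.9 RPKM (SD, n = 3), above 99.7% of 13757 tested genes with a length. Meg3 (107 ± 29.0 RPKM) and Nnat (94.8 ± 21.9) followed, with overlapping ranges. Below them came Igf2r at 61.5 ± 8.64, Grb10 at 39.8 ± 6.69 and Dlk1 at 13.6 ± 2.71 RPKM (SD, n = 3). Dlk1 overlapped in range with Rasgrf1 at 9.399 ± 2.73, while Plagl1 (4.05 ± 3.14) and Igf2 (3.41 ± 3.47) could not be ordered. H19 was lowest, between 0 and 0.796 RPKM. The exon union of Meg3 used here is 15684 bases long and takes in many alternative exons, so its RPKM is low relative to that of any single transcript.

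The order differed in adult β-cells below the top. Peg3 (354 ± 11.7 RPKM, SD, n = 3), Meg3 (87.4 ± 5.31) and Igf2r (67.8 ± 6.76) were above 99.5%, 96.7% and 95.3% of genes. Nnat, at 12.0 ± 5.76 RPKM, was no longer among the highest and overlapped in range with Grb10 at 10.05 ± 2.42. Rasgrf1 was at 3.53 ± 0.691, Plagl1 at 0.996 ± 0.219, Dlk1 at 0.779 ± 0.419 and Igf2 at 0.46 ± 0.274 RPKM. The lowest Plagl1 value lay above the highest Igf2 value, and Dlk1 overlapped in range with both.

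In both groups of control islets Meg3, Peg3 and Nnat were the highest of the set. Their group means were 109, 94.8 and 42.2 RPKM in RC control islets and 38.9, 57.6 and 86.4 in BKS control islets (n = 2 each), each above at least 93.2% of the genes tested there. In Db islets Meg3 (31.6 RPKM) and Peg3 (29.6) were highest, followed by Igf2r at 9.97, while Nnat, at 3.29 RPKM, was above 52.6% of genes. In islets labelled TSC1 KO the highest mean of the set was that of Igf2, at 15.1 ± 8.83 RPKM (SD, n = 2), above 79.1% of genes. Grb10 (12.8) and Igf2r (12.2) had the next highest means. Igf2 overlapped in range with both and with Meg3, Peg3 and Nnat. Each table was normalized on its own, so levels of the 3 tables stand side by side and were not tested against each other.

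**Figure D1:**
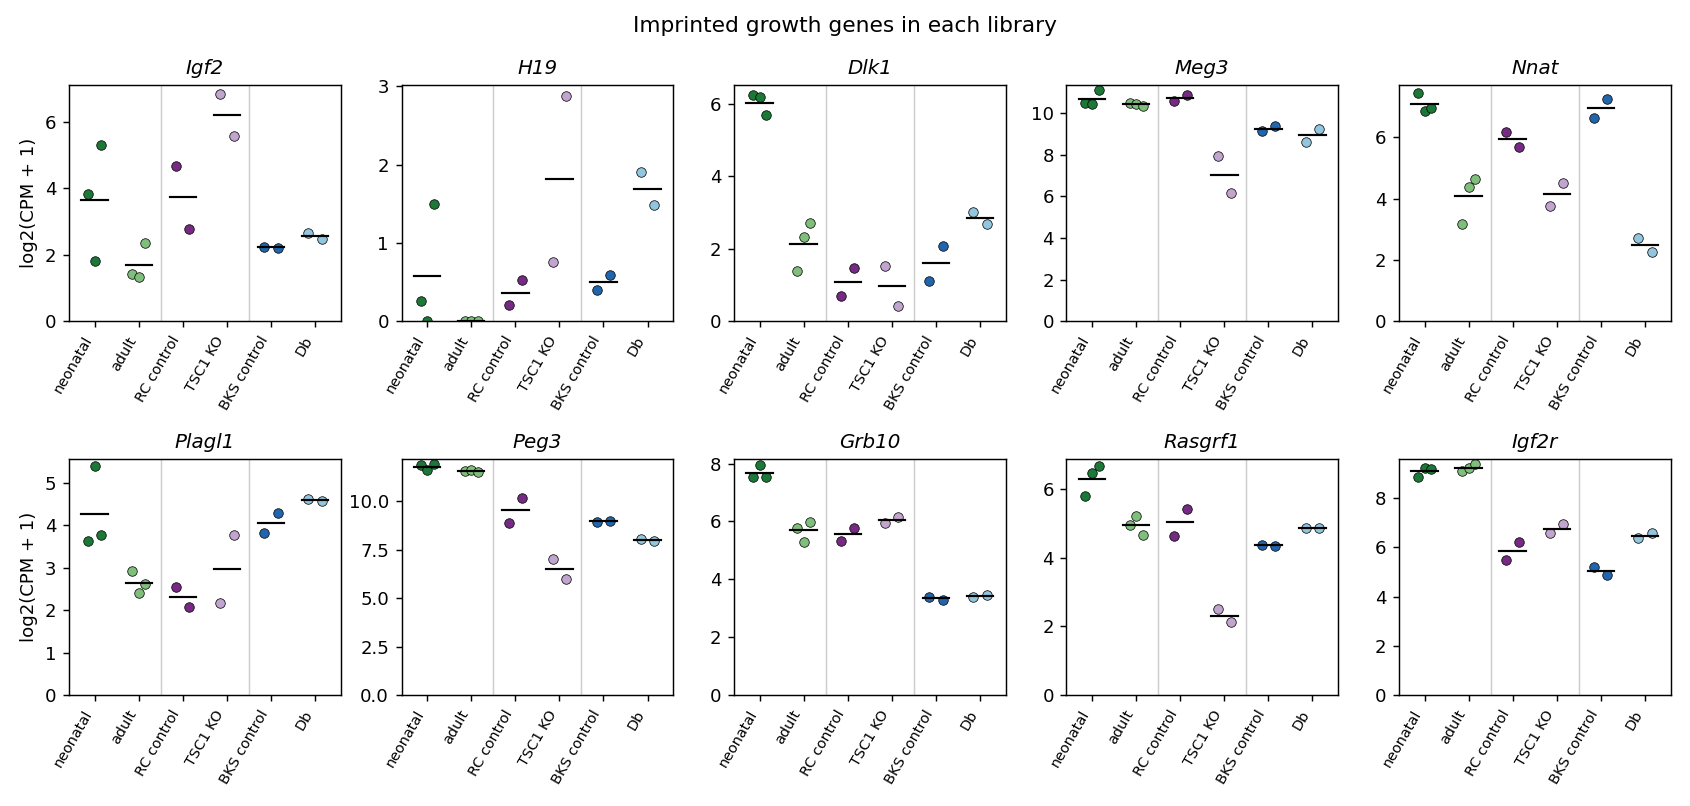
Level of each of the 10 genes in each of the 14 libraries, as log2(CPM + 1) on the vertical axis, with 1 point per library and a black bar at the group mean. Vertical grey lines separate the 3 tables, which were normalized separately. Nnat is lower in adult, TSC1 KO and Db libraries than in every library of their own comparison group, while Peg3 and Meg3 stand at similar heights in neonatal and adult β-cells and lower under the TSC1 KO label.

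Adult against neonatal β-cells asks how transcripts differ across postnatal maturation of wild-type β-cells. Of the 10 genes, 9 had enough counts to be tested. A gene is called when its p from the two-sided quasi-likelihood F test of edgeR, adjusted by Benjamini-Hochberg over all genes tested, is below 0.05. Dlk1, Nnat, Igf2, Plagl1, Grb10 and Rasgrf1 were called lower in adults, none was called higher, and Meg3, Peg3 and Igf2r were not called. Over all 14304 genes tested 6.98% were called, 3.60% lower and 3.38% higher. The median log2 fold change of the 9 genes was -1.99, against -0.03 over all genes. With library totals as the only scaling 321 genes were called higher and 872 lower, in place of 484 and 515, and the median of all genes was -0.19. The groups did not overlap in CPM for 5 of the 9 genes, against 27.5% of all genes. H19 did not reach the count filter.

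Dlk1 showed the largest fitted difference. It had 73.8, 71.55 and 50.3 CPM in neonatal 1, 3a and 3b and 1.60, 3.99 and 5.59 CPM in adult 1, 2 and 3. All neonatal libraries lay far above all adult ones. The fold difference was 17.6-fold lower in adults (edgeR log2 fold change -4.14 ± 0.42 SE, adjusted p = 1.96e-05), and it was called in all 11 alternative settings.

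Igf2, the other growth ligand, was low and uneven. It had 13.1, 2.55 and 38.05 CPM in neonatal 1, 3a and 3b and 1.67, 1.497 and 4.07 CPM in the adults. Neonatal 3a lay within the adult range, so the groups overlapped. edgeR gave a log2 fold change of -2.89 ± 0.82 SE (adjusted p = 0.0489), and the call was lost in 6 of 11 alternatives, among them those without neonatal 1, without any 1 of the adults and without neonatal 3b (log2 fold change -1.70, edgeR adjusted p = 0.342). H19, its neighbour, had 3, 0 and 30 counts in neonatal 1, 3a and 3b and 0 in each adult library. A count of 0 allows up to 0.200, 0.214 and 0.240 CPM in adult 1, 2 and 3, for counting error only. The 30 counts of neonatal 3b equal 1.82 CPM. Neonatal 3b, highest in both Igf2 and H19, also had the highest mesenchymal marker level: the 10 markers summed to 206.6 CPM there and none was at 0. They summed to 20.2 CPM in neonatal 1 and to 8.32 in neonatal 3a, where Dcn, Lum, Pdgfra and Pdgfrb were at 0, and to between 10.7 and 43.2 in adults. Among neonatal libraries acinar markers also took the order 3a, 1, 3b, at 9.80, 23.6 and 68.7 CPM. So did other endocrine markers (958, 1870 and 2067) and neural and Schwann markers (26.2, 35.05 and 47.0). Endothelial markers were highest in 3b too (18.6 CPM), while immune markers were highest in neonatal 1. Duct and β-cell markers were lowest in 3b. None of the 8 mesenchymal markers tested was called. The part of any of these cell types in the Igf2 and H19 values was not tested. In such bulk samples fewer cells of a type and less RNA per cell cannot be told apart.

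**Figure D2:**
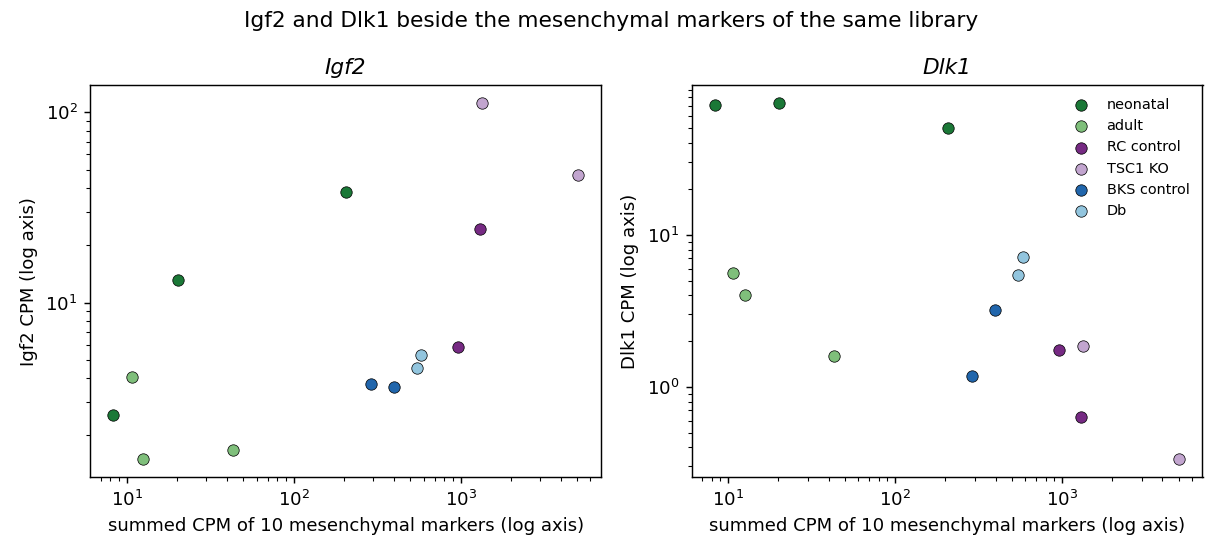
Igf2 (left) and Dlk1 (right) in CPM on a log axis, against the summed CPM of 10 mesenchymal markers of the same library, also on a log axis, with 1 point for each of the 14 libraries coloured by group. The 3 neonatal libraries take the order 3a, 1, 3b in both Igf2 (2.55, 13.1 and 38.05 CPM) and the marker sum (8.32, 20.2 and 206.6 CPM), while Dlk1 is lowest in 3b. Sums of acinar, other endocrine, and neural and Schwann markers, not drawn, also take the order 3a, 1, 3b. Tables were normalized separately.

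Dlk1 did not follow that order, since it was lowest in neonatal 3b and high in neonatal 3a. The receptor gene Igf2r had 457.5, 592 and 589 CPM in the neonatal libraries and 545, 596 and 665 in the adults. The groups overlapped, and the log2 fold change was 0.14 ± 0.15 SE (edgeR adjusted p = 0.693; -0.02 when libraries were scaled by their totals alone). Airn, the non-coding RNA read antisense to Igf2r from the paternal copy, was not called either (edgeR log2 fold change -0.81 ± 0.35 SE, adjusted p = 0.192).

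Both signalling genes were lower in adults. Grb10 had 186, 244 and 182.5 CPM in neonatal 1, 3a and 3b and 53.75, 38.2 and 62.7 in the adults. The lowest neonatal library stood well above the highest adult. The difference was 3.96-fold (edgeR log2 fold change -1.99 ± 0.22 SE, adjusted p = 4.07e-05). Rasgrf1 had 54.1, 86.3 and 99.2 CPM in the neonatal libraries and 29.85, 35.85 and 24.1 in the adults, again with no overlap (edgeR log2 fold change -1.42 ± 0.28 SE, adjusted p = 0.00535). Both calls were made in all 11 alternatives.

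Nnat had 172, 114 and 123 CPM in neonatal 1, 3a and 3b and 8.01, 19.9 and 24.0 CPM in the adults. Every neonatal library stood above every adult, by 7.91-fold in the fit (edgeR log2 fold change -2.98 ± 0.35 SE, adjusted p = 0.000216), and all 11 alternatives called it. Blcap, the gene whose intron holds Nnat and which is read from the opposite strand, had means of 50.7 ± 14.9 CPM in adults and 50.3 ± 13.55 in neonates (SD, n = 3 each; edgeR log2 fold change 0.01 ± 0.28 SE, adjusted p = 0.991). The strand setting of the counting is not given, so reads of overlapping genes cannot be assigned with certainty. Nnat overlaps Blcap, Igf2 overlaps Igf2os, and Igf2r overlaps Airn, each on the opposite strand.

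The DNA-binding proteins parted. Plagl1 had 11.5, 41.3 and 12.6 CPM in the neonatal libraries and 6.61, 4.28 and 5.19 in the adults. Neonatal 3a stood far above the other neonatal libraries, which lay closer to the adults. The log2 fold change was -2.02 ± 0.54 SE (edgeR adjusted p = 0.0332), and the call was lost with limma-voom, without any 1 of the adults and without neonatal 3a (log2 fold change -1.17, edgeR adjusted p = 0.265). Peg3 had 3726, 3121 and 3851 CPM in the neonatal libraries and 3097, 3165 and 2964 in the adults. The groups overlapped, and the log2 fold change of -0.21 ± 0.13 SE was not called (edgeR adjusted p = 0.373).

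Meg3 had 1434, 1402 and 2205 CPM in neonatal 1, 3a and 3b and 1447, 1385 and 1282 in the adults. Only neonatal 3b stood apart. Meg3 was not called, with a log2 fold change of -0.29 ± 0.17 SE (edgeR adjusted p = 0.342). Across the same domain Dlk1 was called lower, and Rtl1, a paternally read gene of the domain, had 10.3, 22.4 and 12.1 CPM in neonates and 6.41, 3.07 and 10.3 in adults and was not called (edgeR log2 fold change -1.18 ± 0.56 SE, adjusted p = 0.244). Dio3, at the far end of the domain, had 0 counts in all 6 β-cell libraries, and Rian and Mirg, its other non-coding RNAs, were not analysed here. Usp29, the neighbour of Peg3, was not called (edgeR log2 fold change 0.24 ± 0.98 SE, adjusted p = 0.932). Other marker lists moved with age. β-cell markers summed to between 24330 and 33480 CPM in neonates and between 54980 and 90760 in adults, with 5 of 10 called higher and 0 lower. Ins1 and Ins2 made up most of each sum. Duct markers summed to between 421 and 536 CPM in neonates and between 237 and 274 in adults, with 3 of 6 called lower. Their part in these results was not tested.

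TSC1 KO against RC control islets asks what differs in islets whose label names a knockout of Tsc1, which the series text places in β-cells. Of the 10 genes, 8 were tested. Meg3, Peg3, Rasgrf1 and Nnat were called lower under the TSC1 KO label, and Igf2, Igf2r, Grb10 and Plagl1 were not called. Over all 14515 genes tested 18.6% were called, 10.0% lower and 8.63% higher. The median log2 fold change of the 8 genes was -0.68, against -0.003 over all genes. Scaling by library totals alone gave 756 genes higher and 1961 lower, in place of 1252 and 1451, and a median of -0.25. The labels did not overlap in CPM for 7 of the 8 genes, against 67.7% of all genes. Leaving out either library labelled TSC1 KO ended every call of the comparison: edgeR then called 0 genes of any kind, with 3535 and 3061 genes at an unadjusted p below 0.05.

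Cell type markers moved with this comparison, and their values belong beside it. The 10 β-cell markers summed to 12820 and 13330 CPM under the TSC1 KO label and to 234100 and 264600 in RC controls, and 9 of 10 were called lower. Ins1 and Ins2 made up most of each sum. The 8 markers of other endocrine cells summed to between 2894 and 7468 CPM against 26900 to 32750, with 5 of 7 tested called lower and 1 higher. Mesenchymal markers summed to 1343 and 5042 CPM in TSC1 KO 1 and 2 and to 1300 and 960 in RC control 1 and 2, with 0 of 10 called by edgeR and 3 at an unadjusted p below 0.05. Endothelial markers summed to 3804 to 5140 CPM against 2465 to 2716, and duct markers to 1998 to 2717 against 278 to 875, with 2 of 8 and 2 of 6 called higher. Stomach markers, which islets should lack, summed to 190 to 319 CPM against 10.85 to 19.7, with all 4 tested called higher and Gkn1, Gkn2, Tff1 and Muc5ac at 0 in all 8 islet libraries. The part of these cell types in the results that follow was not tested.

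Meg3 had 243 and 71.05 CPM in TSC1 KO 1 and 2 and 1537 and 1879 in RC control 1 and 2. The libraries of the 2 labels lay far apart. Its transcripts were 10.9-fold lower under the TSC1 KO label (edgeR log2 fold change -3.44 ± 0.66 SE, adjusted p = 0.0241), and the call was also lost without RC control 2 (adjusted p at most 0.156 over all 10 alternatives). The log2 fold change was -4.60 without TSC1 KO 1 and -2.82 without TSC1 KO 2. Rtl1, on the other parental copy of the domain, had 1 and 0 counts against 21 and 18. From the summed counts it was 21.6-fold lower, with a 95% counting interval of 3.66 to 876 (edgeR log2 fold change -4.23 ± 0.94 SE, adjusted p = 0.0333), and its call was lost in 6 of 10 alternatives. Dlk1 had 8 and 1 counts against 4 and 12, too few for the test. The ratio of its summed, scaled counts was 1.015, with a 95% counting interval of 0.395 to 2.44.

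Peg3 had 130 and 62.4 CPM in TSC1 KO 1 and 2 and 477 and 1171 in RC control 1 and 2. The controls differed from each other by more than the TSC1 KO libraries did, but no libraries overlapped. The difference was 8.55-fold (edgeR log2 fold change -3.10 ± 0.61 SE, adjusted p = 0.0263), with a log2 fold change of -2.31 without RC control 2 and -3.74 without TSC1 KO 1. Plagl1, the other DNA-binding protein, had 3.49 and 12.7 CPM against 4.88 and 3.23. Its groups overlapped, and the log2 fold change of 0.95 ± 0.66 SE was not called (edgeR adjusted p = 0.342) and was -0.22 without TSC1 KO 2.

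Rasgrf1 had 4.65 and 3.335 CPM in TSC1 KO 1 and 2 and 23.9 and 41.2 in the controls. It was 7.99-fold lower (edgeR log2 fold change -3.00 ± 0.39 SE, adjusted p = 0.0121), with the smallest p of the set in this comparison. Grb10 had 61.3 and 70.4 CPM against 39.5 and 54.25, without overlap between the labels. Its log2 fold change of 0.49 ± 0.23 SE was not called (edgeR adjusted p = 0.183).

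Nnat had 12.55 and 21.7 CPM in TSC1 KO 1 and 2 and 71.3 and 50.1 in the controls. The labels did not overlap, and Nnat was 3.59-fold lower (edgeR log2 fold change -1.84 ± 0.33 SE, adjusted p = 0.021). Blcap around it was called lower as well, at 18.8 and 20.35 CPM against 37.1 and 42.8 (edgeR log2 fold change -1.03 ± 0.21 SE, adjusted p = 0.0263).

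The Igf2 gene and its receptor gene had higher values that missed the threshold. Igf2 had 112 and 46.7 CPM in TSC1 KO 1 and 2 and 24.4 and 5.86 in RC control 1 and 2. Both TSC1 KO libraries lay above both controls, which differed widely between themselves. The log2 fold change was 2.40 ± 0.77 SE (edgeR adjusted p = 0.0915), and it was called with DESeq2 and without RC control 1 (log2 fold change 3.77). The value was 1.71 without RC control 2 and 1.62 without TSC1 KO 1. Igf2r had 95.02 and 122 CPM against 44.2 and 73.3 (edgeR log2 fold change 0.88 ± 0.30 SE, adjusted p = 0.0921), and was called without RC control 2. H19 had 3 and 19 counts against 1 and 3, too few for the test. Its summed, scaled counts gave a ratio of 9.92 with a 95% counting interval of 3.37 to 39.6, and TSC1 KO 2 held most of the counts. That library also had the higher mesenchymal, duct, stomach and β-cell marker sums of the pair. Igf2 was higher in TSC1 KO 1, which had the higher endothelial (5140 against 3804 CPM), other endocrine (7468 against 2894) and acinar (3103 against 1385) sums. Its immune, neural and Schwann, and erythroid sums were higher too. The part of these cells in the Igf2 and H19 values was not tested.

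Igf2os, the RNA antisense to Igf2, went the other way from Igf2. It had 5 and 0 counts in TSC1 KO 1 and 2 and 86 and 165 in RC control 1 and 2. Nearly all its reads were in the controls, and from the summed counts it was 27.8-fold lower under the TSC1 KO label, with a 95% counting interval of 11.8 to 86.45 (edgeR log2 fold change -4.77 ± 0.78 SE, adjusted p = 0.0188). Airn, antisense to Igf2r, had 6.27 and 4.34 CPM against 3.93 and 6.45 and was not called (edgeR log2 fold change 0.04 ± 0.45 SE, adjusted p = 0.958).

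**Figure D3:**
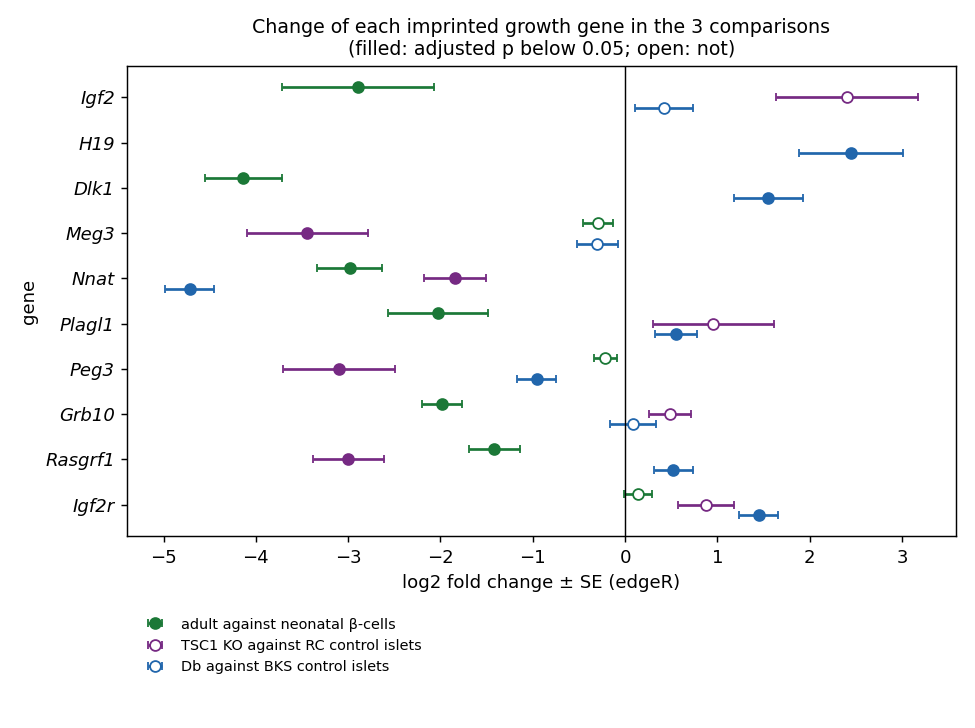
Fitted log2 fold change of each gene with its standard error as a horizontal bar, in adult against neonatal β-cells (green), TSC1 KO against RC control islets (purple) and Db against BKS control islets (blue). Filled points have an edgeR adjusted p below 0.05, and H19 and Dlk1 lack points where counts were too low to test. Nnat has 3 filled points left of 0, at -2.98, -1.84 and -4.72.

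Db against BKS control islets asks what differs at 4 weeks in islets labelled Db. All 10 genes were tested. H19, Dlk1, Igf2r, Plagl1 and Rasgrf1 were called higher, Nnat and Peg3 lower, and Igf2, Meg3 and Grb10 were not called. H19 passed the count filter through the Db libraries alone, so it could be called only as higher. Over all 14369 genes tested 48.2% were called, 24.3% higher and 23.9% lower, so 7 called of 10 is to be read against a background that was itself large. The labels did not overlap for 9 of the 10 genes, against 74.7% of all genes. The median log2 fold change of the set was 0.47, against -0.03 over all genes. Scaling by library totals alone moved that median to 0.29 and the split of all calls from 3488 higher and 3431 lower to 3983 and 1562.

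Nnat had 5.63 and 3.83 CPM in Db 1 and 2 and 98.5 and 150.0 in BKS control 1 and 2. The labels were far apart, with a 26.3-fold lower level in Db (edgeR log2 fold change -4.72 ± 0.27 SE, adjusted p = 7.2e-13). Only 4 of the 14369 genes had a smaller p, and all 10 alternatives called it. Blcap had 21.0 and 18.55 CPM against 32.2 and 33.2 (edgeR log2 fold change -0.72 ± 0.21 SE, adjusted p = 0.00539), a call lost with scaling by totals alone and without Db 2.

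Peg3 had 263 and 252 CPM in Db and 497 and 504 in the controls. Replicates were close and labels did not overlap, and Peg3 was 1.94-fold lower (edgeR log2 fold change -0.96 ± 0.21 SE, adjusted p = 0.000442). With scaling by totals alone the log2 fold change was -0.65 and the adjusted p 0.155. Plagl1 had 23.4 and 22.9 CPM against 13.04 and 18.7 (edgeR log2 fold change 0.55 ± 0.23 SE, adjusted p = 0.0467). That call was lost in 5 of 10 alternatives, with adjusted p up to 0.286.

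Among the ligands, Dlk1 had 7.12 and 5.42 CPM in Db 1 and 2 and 1.18 and 3.21 in the controls. It was 2.93-fold higher (edgeR log2 fold change 1.55 ± 0.37 SE, adjusted p = 0.00141), from low counts of 129 and 112 against 11 and 25. All 10 alternatives called it, with a log2 fold change of 2.43 without BKS control 2. Igf2 had 5.30 and 4.55 CPM against 3.74 and 3.59 and was not called (edgeR log2 fold change 0.42 ± 0.31 SE, adjusted p = 0.273). H19 had 50 and 37 counts against 3 and 4. The ratio of its summed, scaled counts was 5.50, with a 95% counting interval of 2.56 to 14.1 (edgeR log2 fold change 2.44 ± 0.56 SE, adjusted p = 0.000794). Igf2os had 26.45 and 22.6 CPM against 51.0 and 70.3 and was called lower (edgeR log2 fold change -1.30 ± 0.21 SE, adjusted p = 1.37e-05).

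Igf2r had 82.6 and 94.6 CPM in Db 1 and 2 and 36.35 and 28.6 in BKS control 1 and 2. It was 2.72-fold higher, again with no overlap (edgeR log2 fold change 1.45 ± 0.21 SE, adjusted p = 2.45e-06), and was called in all 10 alternatives. Airn had 0.884 and 1.31 CPM against 2.14 and 1.795 and was not called (edgeR log2 fold change -0.84 ± 0.45 SE, adjusted p = 0.122). Rasgrf1 had 27.95 and 27.99 CPM against 19.8 and 19.2 (edgeR log2 fold change 0.52 ± 0.21 SE, adjusted p = 0.0427), a call lost in 6 of 10 alternatives. Grb10 had 9.55 and 9.93 CPM against 9.51 and 8.85. These 4 values lay close together, with a log2 fold change of 0.08 ± 0.25 SE (edgeR adjusted p = 0.805). Meg3 had 395.5 and 596.5 CPM in Db 1 and 2 against 558 and 663, with overlap (edgeR log2 fold change -0.30 ± 0.23 SE, adjusted p = 0.278; 0.04 with scaling by totals alone). Rtl1 was not called (edgeR log2 fold change -0.43 ± 0.45 SE, adjusted p = 0.45).

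Markers of other cells moved here too. Mesenchymal markers summed to 545 and 583 CPM in Db and to 289 and 398 in controls, with 5 of 9 called higher and 2 lower. Duct markers summed to between 706 and 741 CPM against 287 to 288, with 2 of 5 called higher and 2 lower. Most of that sum was Krt7, at 659 ± 30.05 CPM against 194 ± 8.37 (SD, n = 2 each), while Sox9 and Spp1 were called lower. Acinar markers summed to between 126 and 281 CPM against 22.7 to 23.1, with 5 of 8 called higher and 1 lower. Endothelial markers summed to 614.5 to 616 CPM against 840.5 to 894, with 4 of 8 called lower and 2 higher. β-cell markers summed to 427200 to 494100 CPM against 598900 to 919500, with 7 of 10 called lower and 1 higher. Most of each sum was Ins1 and Ins2, while Iapp had 36010 to 42110 CPM in Db against 7072 to 8237. The part of these cells in the higher H19 and Dlk1 values was not tested.

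The 8 islet libraries were fitted together, with 1 term for the table, to test whether the difference under the TSC1 KO label was unlike that under the Db label. These comparisons share no libraries. Of the 10 genes, 4 were called in this test, where 31.8% of all 15702 genes were, so the count is near that share. The difference is the log2 fold change under TSC1 KO minus that under Db. For Meg3 it was -3.225 ± 0.70 SE (edgeR adjusted p = 0.00858; 0.0505 without RC control 2; difference -4.46 without TSC1 KO 1), from -3.44 under TSC1 KO and -0.30 under Db. For Rasgrf1 it was -3.60 ± 0.42 SE (edgeR adjusted p = 9.45e-05), from -3.00 under TSC1 KO and 0.52 under Db, so the directions were opposite. Peg3 was lower under both labels, and more so under TSC1 KO (difference -2.22 ± 0.62 SE, edgeR adjusted p = 0.0232), a call lost in 6 of 14 alternatives. That difference was -1.465 without RC control 2, -2.82 without RC control 1 and -2.95 without TSC1 KO 1. Nnat was also lower under both, and more so under Db (difference 2.78 ± 0.47 SE, edgeR adjusted p = 0.00139). For Igf2, H19, Dlk1, Plagl1, Grb10 and Igf2r the difference was not called, with adjusted p from 0.184 (Igf2r) to 0.765 (Plagl1).

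The set can be placed among other imprinted genes, of which 48 were listed and 42 had a row. That list too was made with earlier results of these data known, so its shares are a description only. In β-cells 30 of them were tested, and 3 were called higher and 5 lower in adults (26.7%, against 6.98% of all genes). Kcnk9, a potassium channel gene, was at 1.97 ± 0.437 CPM in adults against 65.3 ± 12.4 in neonates (SD, n = 3 each; edgeR log2 fold change -5.05 ± 0.36 SE, adjusted p = 8.53e-07). Kcnq1 (log2 fold change -3.00), Zim1 (-2.14) and Peg10 (-2.28) were lower, and Nap1l5 (2.60) and Zrsr1 (1.49) were higher. The calls of Peg10 and Zrsr1 were lost in 6 and 7 of 11 alternatives. The median log2 fold change of the 30 was -0.41, beside -1.99 for the 9 growth genes.

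Under the TSC1 KO label 1 of 28 other imprinted genes was called higher and 9 lower, with a median log2 fold change of -0.61. That is 35.7%, against 18.6% of all genes, and every call was lost without either TSC1 KO library. Beside Igf2os and Rtl1 these include Ddc, which encodes aromatic amino acid decarboxylase, at 7.74 ± 0.561 CPM against 127 ± 47.2 (SD, n = 2 each; log2 fold change -4.03). Nap1l5 (-2.95) and Zdbf2 (-2.66) were lower and Atp10a (3.12) higher, the last also lost with scaling by totals alone.

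In Db islets 7 of 28 were called higher and 6 lower, with a median log2 fold change of -0.22. That is 46.4% of those tested, near the 48.2% of all genes called in this comparison. Cdkn1c, which encodes the cell cycle inhibitor p57, was at 2.28 ± 0.138 CPM against 11.4 ± 2.66 (SD, n = 2 each; edgeR log2 fold change -2.32 ± 0.30 SE, adjusted p = 4.45e-07). Zim1 (-2.21) was lower, and Osbpl5 (1.52), Trappc9 (1.43) and Inpp5f (1.37) were higher. Kcnk9 had 13 and 28 counts in Db libraries and 0 in both controls. If the control group is given 3 counts, the ratio is 6.05, without counting error of the Db libraries. The exact 95% counting interval of the ratio from the observed counts starts at 4.70.

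**Figure D4:**
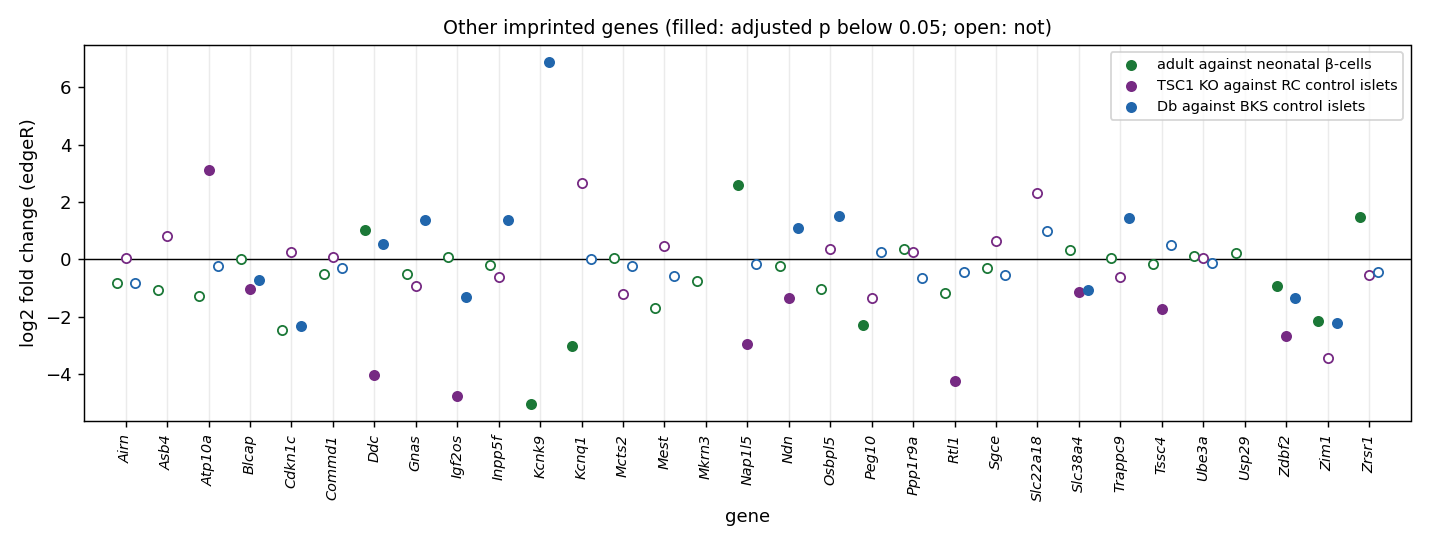
Fitted log2 fold change of other imprinted genes that passed the count filter in any comparison, with 1 column per gene and 1 colour per comparison. Filled points have an edgeR adjusted p below 0.05. The highest point, Kcnk9 in Db, stands for a gene with 0 counts in both controls, where the fitted value depends on the prior count, and Zim1 is filled below 0 in the β-cell and Db comparisons.

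The partners on which these growth genes act were listed as 27 genes of the IGF, Notch and Ras axes. Earlier results of these data were known when this list was made, so its shares are a description only. In adult β-cells 5 of 25 tested were called lower, against 3.60% of all genes. The genes of the RNA-binding proteins that bind Igf2 transcripts were among them. Igf2bp1 was at 0.249 ± 0.136 CPM in adults against 16.5 ± 7.44 in neonates (SD, n = 3 each; log2 fold change -6.03), and Igf2bp3 (-5.55) and Igf2bp2 (-2.66) were lower too. Igf1r, the receptor through which IGF2 signals, fell by 1.06 log2 units, and Irs1 fell by 1.11. The call of Irs1 was lost in 5 of 11 alternatives, and that of Igf2bp1 with limma-voom.

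Under the TSC1 KO label 3 of 25 were called higher and 1 lower, which is 16% and below the 18.6% of all genes. Igf1 (log2 fold change 3.52), Notch2 (3.04) and Grb7 (0.80) were higher and Insrr (-4.12), which encodes a receptor related to the insulin receptor, was lower. All 4 calls were lost without either TSC1 KO library. That of Grb7 was also lost with DESeq2, with scaling by totals alone and with the replicate block, and that of Igf1 with the replicate block. In Db islets 10 of 24 were called higher and 7 lower (70.8%, against 48.2% of all genes). Rasgrf2, the paralog of Rasgrf1, was at 40.35 ± 0.122 CPM against 3.98 ± 1.09 (SD, n = 2 each; edgeR log2 fold change 3.35 ± 0.26 SE, adjusted p = 4.01e-11) beside 0.52 for Rasgrf1. Irs2 (2.30) and Rptor (1.17) were higher, and Igf2bp2 (-1.97), Insrr (-1.51) and Rictor (-1.26) lower, the last not without Db 2.

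Within the set, likeness was measured as the Pearson correlation of log2(CPM + 1), centred on the mean of each table, over the 14 libraries. H19 and Dlk1 were not tested in all 3 comparisons, so they have no values here. The libraries of a group share their condition, so these values describe the pattern of the 3 comparisons. Meg3 was closest to Peg3 (0.94) and Rasgrf1 (0.83), and Plagl1 was closest to Grb10 (0.78). Nnat and Igf2r were the most opposed pair (-0.76). The highest value of Igf2 within the set was 0.51, with Grb10, and it was not compared with H19 or Dlk1. Among all 12158 genes tested in every table, those most like Peg3 were the calcium channel gene Cacna1a (0.995), Pclo (0.987) and St18 (0.971). Meg3 was most like Slc37a4 (0.98), ENSMUSG00000091793 (0.979) and Cacna1b (0.976), and Rasgrf1 most like Whrn (0.974), B4galt5 (0.958) and Phf21b (0.958). Igf2 was most like Paqr4 (0.965), Fgfr3 (0.948) and Akna (0.934). Nnat was most like Tfrc (0.94), ENSMUSG00000090867 (0.931) and Maz (0.93), and Grb10 most like Pde3a (0.948), Arhgap36 (0.944) and Coa7 (0.942). Igf2r was most like Med13l (0.947), Lrba (0.943) and Tln1 (0.931). The least close were the genes nearest to Plagl1, namely Myo1e (0.902), Tpm4 (0.881) and Jup (0.878).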

How the data were processed

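The 14 libraries were taken from 3 tables of raw counts deposited by the authors, whole reads per gene with no normalization. Per the labels' protocols, libraries were made with the SMARTer Stranded kit after Trizol extraction. The submitters' processing notes name HTSeq 0.7.1, cutadapt 1.13, DESeq2 1.16.0 and GSNAP, and 2 builds (mm9 and NCBIM37). No source used here gives the strand setting of the counting. Rows that name no gene were left out. Gene rows held 24.5% to 44.3% of reads in the β-cell and Db tables, and the TSC1 KO table has no such rows.

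Symbols matched 32620 of 37310 identifiers (87.4%). The reference is a later build than the files'. It gave symbols, chromosomes, exon lengths, overlaps, and promoter letters with their coordinates. Each table was fitted alone with edgeR 4.0.16 in R 4.3.3 (filterByExpr with a minimum count of 10 and total of 15, TMM, robust quasi-likelihood), checked on simulated data. Alternatives were DESeq2 1.42.0, limma-voom (limma 3.58.1), other scaling, no filter, the replicate numbers as a block and each library left out. Ratios of low counts carry exact 95% intervals from summed counts, and a count of 0 allows up to 3 counts, for counting error only. Some genes with few counts in a group passed the filter through the other group alone, so each could be called in a single direction. Among them were H19 and Kcnk9 in the Db comparison, Rtl1 and Igf2os in that of TSC1 KO, and Igf2bp1 in β-cells. Replicates differed by more than sampling noise (chi-square per degree of freedom 10.0 to 81.3).

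All 10 genes are named in every comparison. Of the other lists, the 6 called genes with the largest fold change per comparison are named, with the overlapping or same-cluster partners of a member and, for each gene tested in all tables, the 3 genes most like it. Genes and lists were chosen with earlier results of these data known. For 1 gene of the listed partners the result is not reported here.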

Additional observations from a re-analysis of the deposited data

Results flagged for a closer look

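For 4 genes the difference under the TSC1 KO label was unlike that under the Db label, by a test of the difference itself in 1 fit over 8 islet libraries. Over all 15702 genes 31.8% were called in this test, so 4 of the 10 genes is a count near that share. The log2 fold change under TSC1 KO minus that under Db was -3.225 for Meg3 (edgeR adjusted p = 0.00858), 2.781 for Nnat (edgeR adjusted p = 0.00139), -2.224 for Peg3 (edgeR adjusted p = 0.0232) and -3.604 for Rasgrf1 (edgeR adjusted p = 9.45e-05). The call of Peg3 was lost in 6 of 14 alternatives and that of Meg3 without RC control 2. The mice differed in age, 8 weeks against 4, and the libraries of the 2 comparisons came in separate tables. The β-cell marker sum was lower in both comparisons, at 12820 to 13330 CPM against at least 234100 under TSC1 KO and at 427200 to 494100 against at least 598900 in Db. Ins1 and Ins2 made up most of each sum. The part of age, table and marker levels in the differences was not tested. No group had 4 or more libraries, so no library was tested as lying far from its group.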

How the results depend on the processing

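In adult β-cells 6 of the 10 growth genes were called, and 4 to 6 in the 11 alternatives, always Dlk1, Nnat, Grb10 and Rasgrf1. Under the TSC1 KO label 4 were called, 0 without either TSC1 KO library and up to 5 without a control. The other imprinted genes gave 10 calls there and between 0 and 13 with a library left out. In Db islets 7 were called, and 5 to 7 in the alternatives. The test of the difference between the islet effects called 4, and 3 to 6 with a library left out. Over all genes, 405, 430 and 463 were called without 1 adult library in place of 999, 0 without either TSC1 KO library in place of 2703, and 4419 without Db 2 in place of 6919. The DESeq2 count was 1588 in β-cells. Without RC control 1 the count was 4015. Without Db 2 the difference test gave 2910 calls in place of 4988.

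Replicate numbers were not stated to mark shared animals or days, and same-numbered islet libraries did not deviate together (correlation -0.06 in both tables). With the replicate block, 4 growth genes were called under TSC1 KO (Igf2 gained, Peg3 lost), 5 in Db (Plagl1 and Rasgrf1 lost) and 4 in the difference (Igf2 gained, Peg3 lost). The other imprinted genes called under TSC1 KO were then 6, and all genes 1648. No paired analysis was possible for β-cells because 2 neonatal columns share the number 3 and none has 2.

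In all, 10 values changed sign, none of them called. The log2 fold change of Igf2r in adults was -0.024 with library totals as the only scaling, that of Plagl1 under TSC1 KO -0.22 without TSC1 KO 2 (1.63 without TSC1 KO 1), and that of Meg3 in Db 0.039 with totals only. The difference between islet effects became -1.42 for H19 without TSC1 KO 2 (1.695 without TSC1 KO 1) and -0.16 for Grb10 with totals only. For Plagl1 it became -0.044 with limma-voom, -0.23 with totals only, -0.041 without RC control 2, -0.90 without TSC1 KO 2 (0.93 without TSC1 KO 1) and -0.01 without BKS control 2. With totals only, the median of all genes in the difference test was -0.47. The cause of these changes was not tested. With 2 libraries a group, leaving out 1 assumes that the lone library varies like the others. Depth limits H19 in β-cells, and H19 and Dlk1 under TSC1 KO, to ratios of counts.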
